A study of Mus musculus with 6 samples.

Results

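The troponins and tropomyosins are the regulatory proteins of the thin filament, the actin cable of the muscle sarcomere. Their genes were taken by symbol, leaving out Tnnc1 because it had almost no counts, and numbered 10 of the 37477 Ensembl gene IDs in the deposited count table: Tnnt1, Tnnt2, Tnnt3, Tnni1, Tnni2, Tnni3, Tnnc2, Tpm1, Tpm2 and Tpm3. RNA sequencing was done on quadriceps, the thigh muscle that extends the knee, taken from C57BL/6 mice aged 20 weeks. The 3 WT libraries came from wild-type mice, and the 3 KO libraries from MERKO mice, in which estrogen receptor alpha, a hormone-activated transcription factor encoded by Esr1, was knocked out in muscle only. The sources used here name neither the Cre driver, the deleted exons nor the sex, and do not say whether each library was a separate animal. A p-value below therefore measures only how far these libraries scatter, which may be technical.

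Tropomyosin is a coiled coil that runs along the actin filament and covers the sites to which myosin binds at rest. Troponin sits on it as a complex of a subunit that holds tropomyosin (troponin T), a subunit that inhibits the interaction with myosin (troponin I) and a subunit that binds calcium (troponin C), and when calcium rises the complex lets tropomyosin move aside. Skeletal muscle uses slow-fibre and fast-fibre genes for each troponin subunit, and the heart uses its own troponin T and I genes.

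Counts of members of 1 family can be mixed up where their sequences are alike, so the closest stretches are shown first. Within each family the coding sequences of the members were 68.5% to 76.5% identical, and the longest identical run was 35 bases, between Tpm1 and Tpm2. The longest run between the slow and the fast skeletal troponin I genes, Tnni1 and Tnni2, was 22 bases, and it lies in the 88-base coding stretch below, which begins at coding base 349 of Tnni1, 346 of Tnni2 and 445 of the cardiac gene Tnni3 (GENCODE M21 transcripts, GRCm38). Capitals mark bases that differ from Tnni1, of which there are 18 in Tnni2 and 27 in Tnni3.
Tnni1: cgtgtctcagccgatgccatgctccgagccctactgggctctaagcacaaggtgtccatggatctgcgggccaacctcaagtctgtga
Tnni2: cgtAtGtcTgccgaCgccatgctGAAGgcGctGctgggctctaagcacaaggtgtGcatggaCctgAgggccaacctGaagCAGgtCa
Tnni3: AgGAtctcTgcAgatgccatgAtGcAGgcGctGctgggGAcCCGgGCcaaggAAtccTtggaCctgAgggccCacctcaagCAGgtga

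Tpm3 had a far closer relative in Tpm3-rs7, a single-exon gene at chr14:113314608-113316754 on the plus strand that GENCODE M21 calls protein coding and RefSeq calls a pseudogene. Over 2102 aligned transcript bases the best-matching Tpm3 transcript and Tpm3-rs7 differed at 13, an identity of 99.4%, with an identical run of 624 bases. In the 744-base short coding form the differences were G72A, G98A and G127A, counted from the first base of the start codon with the Tpm3 base first and the Tpm3-rs7 base last. Coding bases 8 to 127 hold all 3, in capitals below. The 2 long coding forms of Tpm3, of 855 and 852 bases, shared identical runs of 612 and 323 bases with Tpm3-rs7.
Tpm3 short form: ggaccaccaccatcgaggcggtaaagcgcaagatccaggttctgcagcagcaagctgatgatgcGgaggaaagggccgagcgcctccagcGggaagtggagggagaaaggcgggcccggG
Tpm3-rs7: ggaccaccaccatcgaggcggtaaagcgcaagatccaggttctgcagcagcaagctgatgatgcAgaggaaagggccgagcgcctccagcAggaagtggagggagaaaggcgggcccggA

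The libraries held 7388365 to 8560244 counts each. Esr1 counts, in replicate order, were 50, 41 and 44 in WT against 22, 16 and 16 in KO, so every KO library was below every WT library (log2 difference -1.45, SE 0.23; adjusted p = 0.145 with edgeR's quasi-likelihood test and Benjamini-Hochberg adjustment). In that test 0 of 13848 genes passed an adjusted p of 0.05, a background of 0%, while 590 (4.26%) had an unadjusted p under 0.05; DESeq2 called 2 genes and limma voom 1. General skeletal muscle markers summed to 189893 to 224578 CPM in WT and 172653 to 196793 in KO. A CPM is a count scaled to a library total of 1000000. Myh7, the slow myosin heavy chain, stood at 21746 ± 2635 CPM (SD, n = 3) in WT against 21018 ± 1186 (SD, n = 3) in KO, whereas Myh4, the myosin of the fastest fibres, stood at 303 ± 126 (SD, n = 3) and 491 ± 89.2 (SD, n = 3). Per kilobase of exon the range over the 6 libraries was 2172 to 2726 CPM for Myh7 and 32.2 to 97.6 for Myh4. Myh1, another fast myosin, was more abundant than Myh4, at 3363 ± 547 CPM (SD, n = 3) in WT against 4329 ± 347 (SD, n = 3) in KO. A list of 10 fast contractile markers summed to 17332 to 18647 CPM in WT and 18370 to 18706 in KO. A list of 9 slow ones summed to 36297 to 43427 CPM in WT and 38368 to 42080 in KO. Mouse quadriceps is known mainly for fast fibres, and the sources used here do not say which part of the muscle was taken. In bulk muscle, fewer fibres of a type and less RNA per fibre cannot be told apart.

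Of the 10 genes, 9 were tested and 0 passed, at the background of 0%. Both skeletal troponin T genes, the fast troponin I gene, troponin C and the 3 tropomyosin genes were close to the same level in both genotypes, with log2 differences (KO minus WT) of -0.06 to 0.11. The slow gene Tnni1 had a mean 1.12 times that of WT, and the cardiac gene Tnnt2, at a few CPM, had a mean 0.699 times that of WT. Log2 differences of 4 of the 9 were positive, where 49.3% of all genes tested had a positive one, and their median was -0.00, as was that of all genes tested. Together the 10 genes made up 2.27% ± 0.0432 (SD, n = 3) of all counts in WT and 2.31% ± 0.0489 (SD, n = 3) in KO, and the groups overlapped.

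**Figure D1:**
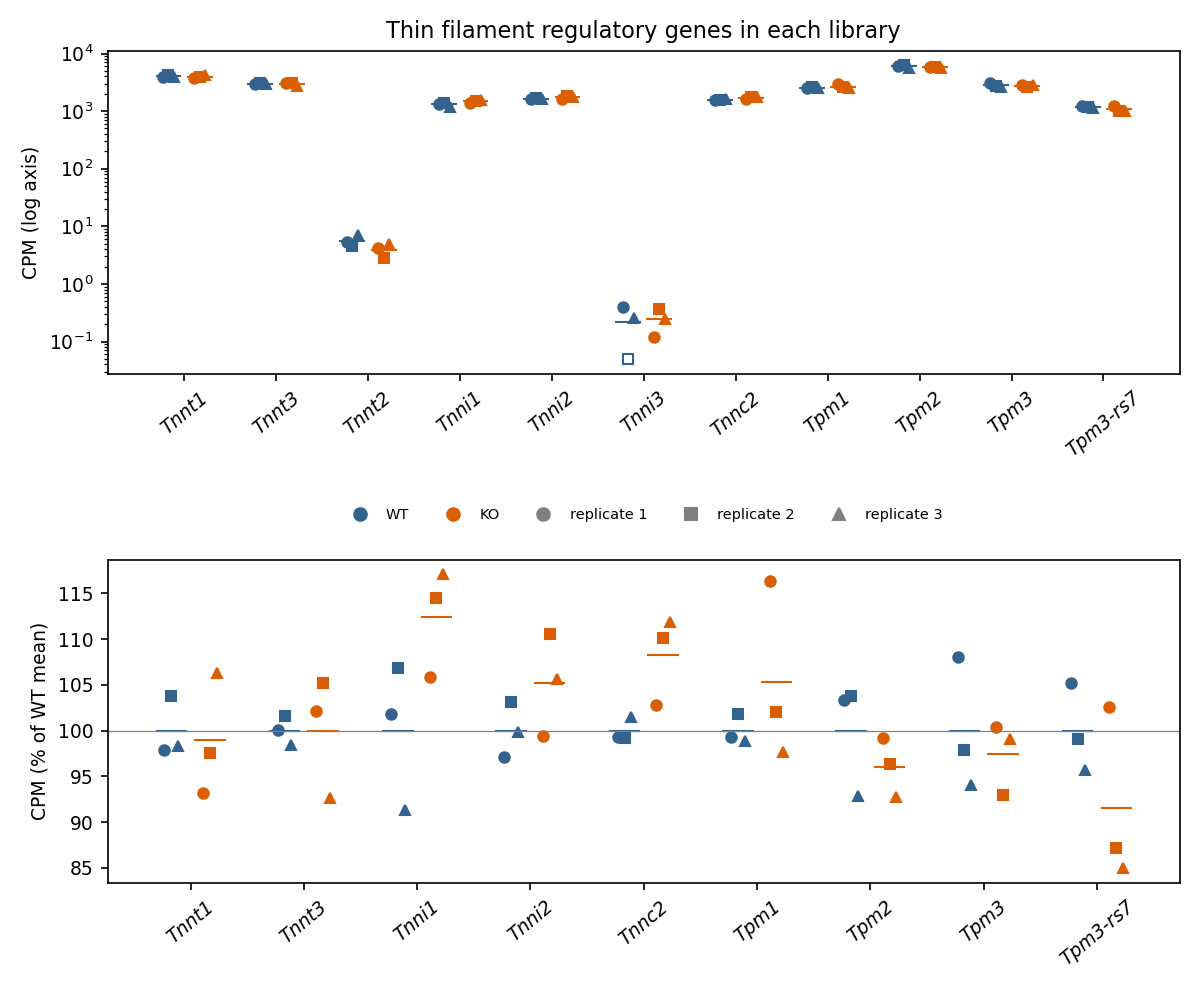
CPM of each gene in each library on a log axis (top) and, for the abundant genes, as a percentage of the WT mean (bottom); colours are genotypes, symbols are replicates, and short lines are group means. The open symbol is the WT library in which Tnni3 had 0 counts, drawn at the foot of the log axis; all abundant genes overlap between genotypes except Tnnc2, whose KO libraries lie above the WT libraries.

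Troponin T anchors the troponin complex to tropomyosin. Tnnt1, the slow skeletal gene at chr7:4504570-4516382 on the minus strand, stood at 3935, 4171 and 3951 CPM in the WT libraries and at 3743, 3921 and 4273 in the KO libraries, replicates 1 to 3 in order. KO replicate 3 was the highest of the 6 libraries and KO replicate 1 the lowest, so the KO libraries enclosed the WT libraries. The means were 4019 ± 132 CPM (SD, n = 3) in WT against 3979 ± 270 (SD, n = 3) in KO, a log2 difference of -0.01 (SE 0.08, 95% interval -0.18 to 0.15; adjusted p = 0.996, edgeR). On the linear scale the interval of the Tnnt1 ratio ran from 0.883 to 1.11, and with no scaling its difference took the other sign.

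Tnnt3, the fast skeletal gene at chr7:142498836-142516009 on the plus strand, had 2974, 3019 and 2923 CPM in WT and 3034, 3126 and 2752 in KO, in replicate order. KO replicate 3, the highest library for Tnnt1, was the lowest for Tnnt3, and the other KO libraries were above all WT libraries. Means were 2972 ± 47.6 CPM (SD, n = 3) and 2971 ± 195 (SD, n = 3), a log2 difference of -0.00 (SE 0.08, 95% interval -0.16 to 0.16; adjusted p = 1.00, edgeR). The ratio interval of Tnnt3 ran from 0.894 to 1.12, and the sign of its difference depended on the scaling.

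Tnnt2, the troponin T of the heart and of developing skeletal muscle, lies at chr1:135836354-135852260 on the plus strand. It had 40, 34 and 55 counts in WT and 35, 23 and 40 in KO, or 5.36, 4.65 and 6.97 CPM against 4.14, 2.78 and 4.95. KO replicate 2 was the lowest and WT replicate 3 the highest, and KO replicate 3 was above WT replicate 2, so the groups overlapped. Means were 5.66 ± 1.19 CPM (SD, n = 3) and 3.96 ± 1.10 (SD, n = 3), a log2 difference of -0.52 (SE 0.24, 95% interval -1.03 to -0.01). For Tnnt2 edgeR gave p = 0.0461 unadjusted and p = 0.989 adjusted, and the authors' deposited table gives a log2 fold change of -0.51, a p of 0.0434 and an adjusted p of 1. Without WT replicate 3 the Tnnt2 difference was -0.34 (unadjusted p = 0.221) and without KO replicate 2 it was -0.32 (unadjusted p = 0.203, edgeR). At this depth the counting error of Tnnt2 alone was 16.3% of its value, beside a spread of 21.0% between WT and 27.8% between KO libraries.

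Markers of the heart and of new fibres were set beside Tnnt2. Of 9 cardiac markers Gata4, Myl7 and Nkx2-5 had 0 counts in every library, and Nppa, Nppb and Mybpc3, known from the heart, had at most 2. Of the others Ryr2, at 2 to 9 counts, had 0.832 CPM in WT and 0.324 in KO, and Myl4, also a gene of developing muscle, had 8.40 ± 1.26 CPM (SD, n = 3) and 6.86 ± 0.518 (SD, n = 3). Of the cardiac markers 2 were tested, both with a negative log2 difference, and 0 passed. The cardiac list summed to 2134 to 2598 CPM in WT and 2295 to 2613 in KO, almost all of it Myh6, a myosin gene close in sequence to Myh7, at 2432 ± 268 CPM (SD, n = 3) and 2411 ± 171 (SD, n = 3). The 8 markers of developing or regenerating fibres summed to 486 to 516 CPM in WT and 474 to 492 in KO, mostly Myh8, the perinatal myosin. Of these 8, 4 had a positive and 4 a negative difference, and 0 passed. Means were higher in KO for Myh3 (46.1 CPM in WT, 47.1 in KO), Myog (3.76, 4.15), Myod1 (2.50, 3.05) and Pax7 (1.36, 1.93). Ncam1, an adhesion molecule of new fibres, had 25.8 ± 1.00 CPM (SD, n = 3) in WT against 22.1 ± 1.42 (SD, n = 3) in KO. Every KO library of Ncam1 was below, as for 5.45% of all genes tested (unadjusted p = 0.0417, adjusted p = 0.989, edgeR). The part of these markers in the Tnnt2 values was not tested.

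As a share of all troponin T counts, Tnnt1 took 56.9%, 58.0% and 57.4% in WT and 55.2%, 55.6% and 60.8% in KO. KO replicates 1 and 2 were below the WT libraries and KO replicate 3 was above them, giving means of 57.4% ± 0.532 (SD, n = 3) and 57.2% ± 3.11 (SD, n = 3). Tnnt2 took 0.0811% ± 0.0186 (SD, n = 3) in WT against 0.0570% ± 0.0159 (SD, n = 3) in KO. Per kilobase of exon, which allows the genes to be compared, the Tnnt1 share was 49.3% ± 0.541 (SD, n = 3) in WT against 49.0% ± 3.20 (SD, n = 3) in KO, and per kilobase of the longest transcript it was 57.9% and 57.7%.

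Troponin I is the inhibitory subunit. Tnni1, the slow skeletal gene at chr1:135779434-135810989 on the plus strand, had 1333, 1399 and 1196 CPM in WT and 1386, 1498 and 1532 in KO. KO replicates 2 and 3 were the highest of the 6 libraries, while KO replicate 1 was below WT replicate 2, so the groups overlapped. Means were 1309 ± 104 CPM (SD, n = 3) and 1472 ± 76.4 (SD, n = 3), a log2 difference of 0.17 (SE 0.08, 95% interval 0.00 to 0.34). With edgeR the unadjusted p of Tnni1 was 0.0493 and the adjusted p 0.989, and the authors' deposited table gives a log2 fold change of 0.19 with a p of 0.0567. Tnni1 and Tnnt2 were the 2 of the 9 tested genes with an unadjusted p under 0.05 in edgeR, where 4.26% of all genes had one; they differed in sign. The number was 0 of 9 with DESeq2 and, with edgeR, without WT replicate 1, WT replicate 3 or KO replicate 2, and without WT replicate 3 the log2 difference of Tnni1 was 0.11.

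Tnni2, the fast skeletal gene at chr7:142441808-142444410 on the plus strand, had 1607, 1707 and 1653 CPM in WT and 1646, 1831 and 1749 in KO. KO replicates 2 and 3 were again the highest libraries, and KO replicate 1 lay among the WT libraries. Means were 1656 ± 50.0 CPM (SD, n = 3) and 1742 ± 92.6 (SD, n = 3), a log2 difference of 0.07 (SE 0.07, 95% interval -0.08 to 0.23; adjusted p = 0.993, edgeR). Tnni3, the troponin I of the heart at chr7:4518305-4524229 on the minus strand, had 3, 0 and 2 counts in WT and 1, 3 and 2 in KO. These are at or under 3 counts, the limit that a count of 0 allows, so no fold was taken and Tnni3 did not enter the test.

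The Tnni1 share of all troponin I counts was 45.3%, 45.0% and 42.0% in WT and 45.7%, 45.0% and 46.7% in KO. WT replicate 3 was the low library and the others lay close together, with means of 44.1% ± 1.86 (SD, n = 3) and 45.8% ± 0.849 (SD, n = 3). Per kilobase of exon the slow share was 24.7% ± 1.40 (SD, n = 3) in WT against 26.0% ± 0.659 (SD, n = 3) in KO. Slow RNA was therefore a smaller part of troponin I than of troponin T per length, in every library of both genotypes. The 95% Wilson intervals of the isoform shares, which cover counting error only, reached at most 0.659 percentage points to either side. For the Tnnt2 share they were as wide as the spread between libraries, from 0.0569% to 0.106% in WT replicate 1.

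**Figure D2:**
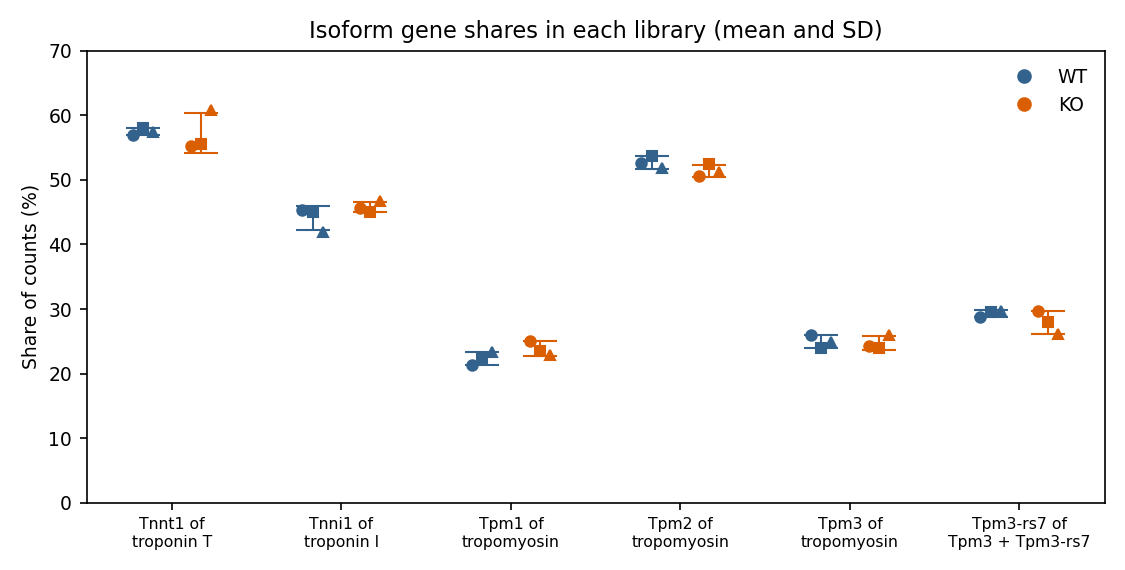
Share of counts, in percent, taken by the slow troponin T and I genes, by each tropomyosin gene and by Tpm3-rs7, with 1 symbol per library (circle, square and triangle for replicates 1 to 3), coloured by genotype, and error bars of 1 SD about the group mean. The genotypes overlap in every share, and KO replicate 3 stands above the other libraries in the Tnnt1 share at 60.8%.

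Troponin C binds the calcium that switches the filament on. Tnnc2, the fast skeletal gene at chr2:164777161-164779967 on the minus strand, had 1566, 1565 and 1600 CPM in WT and 1621, 1737 and 1765 in KO. Every KO library was above every WT library, which was so for 4.96% of all genes tested, and KO replicate 1 was the nearest to WT. Means were 1577 ± 19.9 CPM (SD, n = 3) and 1708 ± 76.5 (SD, n = 3), a ratio of 1.08 and a log2 difference of 0.11 (SE 0.07, 95% interval -0.04 to 0.27; adjusted p = 0.989, edgeR). Tnnc2 was the 1 gene of the 9 tested that lay wholly above in KO, and 0 lay wholly below, where 5.45% of all genes did. Without overlap in either direction were 10.4% of all genes tested.

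Most of the exonic sequence of Tnnc2 also belongs to another gene. Of its 800 exonic bases 592, or 74%, are also exonic in Ube2c, a cell cycle gene on the opposite strand, and the library kit did not mark strand; of the other members, Tnni3 shares 4.17% of its exonic bases with Dnaaf3 and the rest share 0. Ube2c had 1379 ± 30.4 CPM (SD, n = 3) in WT against 1511 ± 97.6 (SD, n = 3) in KO, and the ratio of its counts to those of Tnnc2 was 0.874 ± 0.0101 (SD, n = 3) and 0.884 ± 0.0222 (SD, n = 3). Per kilobase of exon, Ube2c had 519 to 618 CPM over the 6 libraries, whereas Mki67 and Top2a, other genes of dividing cells chosen after their values were seen, had at most 0.133 and 0.0892. The sources used here do not say how reads of the shared bases were divided. Tnnc1, which encodes the troponin C of slow fibres and the heart, was listed at 0 counts in 5 libraries and at 1 in KO replicate 3, beside abundant Tnnt1 and Tnni1, which is why it is not among the 10. Tnnc1 lies inside the span of Nisch on the opposite strand without sharing exonic bases, and Nisch had 706 to 795 counts per library.

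Tropomyosin blocks or frees the myosin sites on actin. Tpm2, the beta gene at chr4:43514711-43523765 on the minus strand, had 6192, 6216 and 5563 CPM in WT and 5938, 5770 and 5552 in KO. WT replicates 1 and 2 were the highest, but WT replicate 3 was level with KO replicate 3 and the groups overlapped. Means were 5990 ± 370 CPM (SD, n = 3) and 5753 ± 193 (SD, n = 3), a log2 difference of -0.06 (SE 0.08, 95% interval -0.22 to 0.11; adjusted p = 0.993, edgeR).

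Tpm1, the alpha gene of fast fibres and the heart at chr9:67022590-67049406 on the minus strand, had 2518, 2580 and 2507 CPM in WT and 2949, 2587 and 2476 in KO. KO replicate 1 alone stood high, and the other KO libraries were at the level of WT. Means were 2535 ± 39.3 CPM (SD, n = 3) and 2671 ± 247 (SD, n = 3), a log2 difference of 0.08 (SE 0.08, 95% interval -0.09 to 0.25; adjusted p = 0.993, edgeR). Without KO replicate 1 the log2 difference of Tpm1 was -0.0022. Its spread was 1.55% of the mean in WT and 9.26% in KO, the widest among the abundant genes.

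Tpm3, whose long form is the alpha tropomyosin of slow fibres and whose short forms occur in the cytoskeleton, lies at chr3:90072649-90100902 on the plus strand. It had 3069, 2781 and 2674 CPM in WT and 2852, 2640 and 2814 in KO. WT replicate 1 was the highest and KO replicate 2 the lowest, with the rest mixed. Means were 2841 ± 204 CPM (SD, n = 3) and 2769 ± 113 (SD, n = 3), a log2 difference of -0.04 (SE 0.08, 95% interval -0.20 to 0.13; adjusted p = 0.993, edgeR), and without WT replicate 1 it was 0.022.

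The near-identical copy shown above took reads that cannot be assigned with certainty. Tpm3-rs7 had 1176 ± 56.8 CPM (SD, n = 3) in WT against 1077 ± 112 (SD, n = 3) in KO, a log2 difference of -0.13 (SE 0.08; adjusted p = 0.989, edgeR). It made up 29.3% ± 0.485 (SD, n = 3) of the counts of both genes together in WT and 28.0% ± 1.75 (SD, n = 3) in KO. Per kilobase of merged exons, of which Tpm3 has more, the share of Tpm3-rs7 was 54.0% ± 0.584 (SD, n = 3) and 52.4% ± 2.17 (SD, n = 3). When the counts of Tpm3 and Tpm3-rs7 were summed in each library, the log2 difference was -0.06 (SE 0.08, 95% interval -0.23 to 0.10; adjusted p = 0.993, edgeR). Counts are per gene, so long and short Tpm3 forms were not told apart.

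Among tropomyosin counts Tpm2 took 52.7% ± 0.961 (SD, n = 3) in WT against 51.4% ± 0.962 (SD, n = 3) in KO. Tpm1 took 22.3% ± 0.980 (SD, n = 3) and 23.8% ± 1.17 (SD, n = 3), and Tpm3 took 25.0% ± 1.02 (SD, n = 3) and 24.8% ± 1.05 (SD, n = 3). The genotypes overlapped for each of them. Per kilobase of merged exons the shares were 70.6% in WT and 69.5% in KO for Tpm2, 13.4% and 14.5% for Tpm1, and 16.0% and 16.0% for Tpm3. Counts of Tpm3-rs7, at 1176 CPM in WT and 1077 in KO, are left out of these shares. Any of them that came from Tpm3 would raise the Tpm3 share and lower those of Tpm1 and Tpm2. Tpm4, a cytoskeletal tropomyosin outside the 10, had 41.0 ± 4.37 CPM (SD, n = 3) in WT against 42.5 ± 2.62 (SD, n = 3) in KO.

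**Figure D3:**
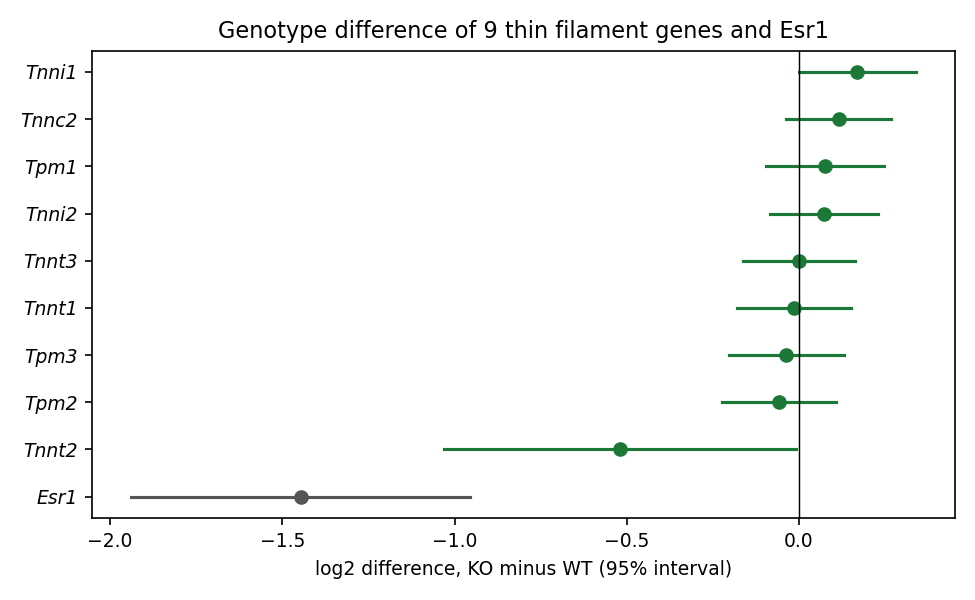
Log2 difference (KO minus WT) of the 9 tested genes and of Esr1 with the 95% interval from edgeR's quasi-likelihood fit. Intervals of all but Tnnt2 (-0.52), Tnni1 (0.17) and Esr1 (-1.45) cross 0, and none passed the adjusted threshold.

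Since longer transcripts give more counts, the order of the genes was taken per length, as CPM per kilobase of merged exons over all 6 libraries. Tnnc2 (2053, range 1956 to 2206), Tpm2 (2018, range 1909 to 2137), Tnnt3 (1877, range 1738 to 1975) and Tnnt1 (1814, range 1698 to 1939) came first, and each overlapped its neighbour in this order. Tnni2 followed at 1135 (range 1073 to 1223), apart from the genes on either side. Tpm3 at 461 (range 434 to 504), Tpm1 at 401 (range 382 to 455) and Tnni1 at 386 (range 332 to 426) again overlapped their neighbours. The cardiac genes were far below, Tnnt2 at 0.620 (range 0.358 to 0.899) and Tnni3 at 0.112 (range 0 to 0.195). Places of Tnnc2 and Tpm3 hold only for the counts as deposited. Of the exonic bases of Tnnc2 74% are shared with Ube2c, and how their reads were divided is unknown. For Tpm3, the counts given to Tpm3-rs7 are left out.

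The order depends on the length used, since genes with many annotated transcripts have more merged exon than any 1 transcript. Per kilobase of the longest transcript Tnnt1 led at 3776, followed by Tnnt3 at 2754, Tpm2 at 2700 and Tnnc2 at 2346. Tnni2 (1898), Tpm3 (1182), Tpm1 (901) and Tnni1 (646) kept their places, as did Tnnt2 (1.44) and Tnni3 (0.253).

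**Figure D4:**
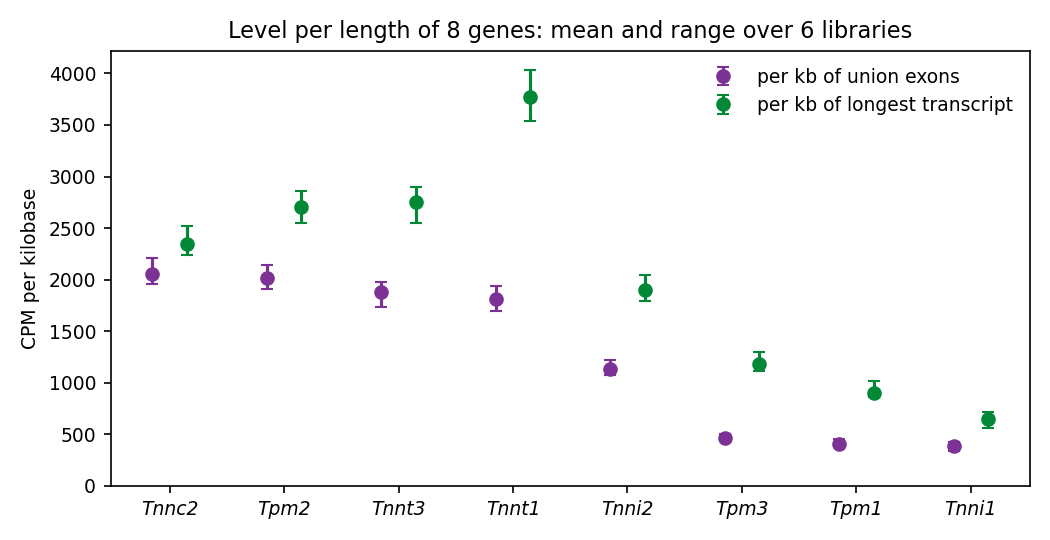
Mean level of the 8 abundant genes in CPM per kilobase over the 6 libraries, with bars from the lowest to the highest library, per length of merged (union) exons and of the longest transcript. Means run from 386 (Tnni1) to 2053 (Tnnc2) with merged exons. Tnnt1 moves from the fourth place to the top, at 3776, with the longest transcript. Levels of Tnnc2 and Tpm3 depend on an unknown division of reads with Ube2c and Tpm3-rs7.

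Because the proteins work as a complex, 7 ratios between levels per kilobase of merged exons were taken, chosen after values were seen and given without a test. Tnnt1 over Tnni1, the slow subunits, was 5.03 ± 0.319 (SD, n = 3) in WT against 4.41 ± 0.140 (SD, n = 3) in KO, and all troponin T over all troponin I was 2.52 ± 0.0291 (SD, n = 3) and 2.34 ± 0.0793 (SD, n = 3). In both ratios every KO library was below every WT library. Tnni1 over Tnnt2 was 518 ± 140 (SD, n = 3) and 849 ± 271 (SD, n = 3), with every KO library above. Among single genes 10.4% of all tested had no overlap in either direction, and no such share was taken over ratios. Of the 7 ratios these 3 all contain Tnni1, so they are not separate observations. Tnnt2 had only 23 to 55 counts per library. Counts of Tnnc2 and Tpm3 depend on how reads shared with Ube2c and Tpm3-rs7 were divided. The other 4 overlapped, among them the fast subunits Tnnt3 over Tnni2 at 1.70 ± 0.0447 (SD, n = 3) and 1.62 ± 0.128 (SD, n = 3), Tnnc2 over Tnni2 at 1.78 ± 0.0594 (SD, n = 3) and 1.84 ± 0.0563 (SD, n = 3), and all tropomyosin over all troponin T at 0.788 ± 0.0361 (SD, n = 3) and 0.773 ± 0.0409 (SD, n = 3).

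The rest of the thin filament was read from lists. Of 6 actin genes 5 were tested and 0 passed, with 4 differences positive, 1 negative and a median log2 difference of 0.09. Actb was at 0.09, Actg1 at 0.10, Actc1 (the cardiac alpha-actin) at 0.13 and Acta2 (the smooth muscle alpha-actin) at -0.11. By far the most abundant actin gene was Acta1, a skeletal muscle marker, at 15503 ± 1732 CPM (SD, n = 3) in WT against 15798 ± 401 (SD, n = 3) in KO. Of 13 genes that set filament length or cap its ends 0 passed, with 5 positive, 8 negative and a median of -0.01. Neb, the giant protein that spans the thin filament, was at -0.10, Lmod3, which nucleates actin, at -0.12, and the end-capping genes Tmod2 and Tmod4 at -0.18 and 0.09. Of 8 genes of filament stability, among them genes mutated in nemaline myopathy, 7 were tested and 0 passed, with 4 positive, 3 negative and a median of 0.06. In that list Mypn, which ties actin to the Z-disc, had 73.7 ± 4.64 CPM (SD, n = 3) in WT against 65.8 ± 2.49 (SD, n = 3) in KO (log2 difference -0.16, unadjusted p = 0.0586, adjusted p = 0.989, edgeR). Kbtbd13 and Klhl40, both nemaline myopathy genes, were at 0.41 (SE 0.24) and 0.18 (SE 0.21), and Xirp2, an actin-binding protein, at -0.11 (SE 0.11). Kbtbd13 had only 4.15 ± 0.249 CPM (SD, n = 3) in WT against 5.53 ± 1.67 (SD, n = 3) in KO, and the groups overlapped.

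Fibre type markers were set beside the slow and fast members. Of 10 fast contractile markers 0 passed, 8 differences were positive, 2 were negative and the median was 0.34. Of the 10, 4 had an unadjusted p under 0.05 (4.26% of all genes tested) and 4 lay wholly above in KO (4.96% of all). These 4 were Pvalb (0.87), the calcium buffer parvalbumin, Actn3 (1.38), the fast Z-disc actinin, Myh1 (0.36), a fast myosin, and Myoz1 (0.31), a Z-disc protein, each with every KO library above every WT library and an adjusted p of 0.989 with edgeR. Myh2, the myosin of fast oxidative fibres, lay wholly below in KO, at -0.15 (adjusted p = 0.989, edgeR). The fast members Tnnt3, Tnni2 and Tnnc2 were at -0.00, 0.07 and 0.11. Of 9 slow contractile markers 0 passed, 4 were positive and 5 negative, and the median was -0.03. Pln, the inhibitor of the slow calcium pump, was at -0.43 (unadjusted p = 0.000904, adjusted p = 0.989, edgeR), while Myh7 was at -0.05, Myl3 at 0.06 and Mybpc1 at -0.07, beside slow Tnnt1 at -0.01 and Tnni1 at 0.17. No difference between the members and these lists was tested.

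Slow, fast and cardiac genes of troponin I lie next to troponin T genes. Tnni3 and Tnnt1 are 1.92 kilobases apart on chromosome 7 with 0 genes between them, Tnni1 and Tnnt2 25.36 kilobases apart on chromosome 1 with 1 gene between, and Tnni2 and Tnnt3 54.42 kilobases apart on chromosome 7 with 1 gene between. In CPM per kilobase of merged exons, Tnnt1 at 1814 lay beside Tnni3 at 0.112, and Tnni1 at 386 beside Tnnt2 at 0.620. The fast pair was abundant on both sides, with Tnni2 at 1135 and Tnnt3 at 1877.

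RefSeq windows of 250 bases before the start (GRCm38.p6) were at hand for 8 of the 10 genes, 11 windows in all, and Tnnt3 and Tnni2 had none. The E-box CANNTG, bound by myogenic factors, was found on either strand in 11 of the 11, with 1 to 4 per window, where 66.2% of all 32851 windows held it. The 11 are not all separate. The Tnni1 windows at chr1:135799171-135799420 and chr1:135799261-135799510 overlap, and the E-boxes of the second also lie in the first. The M-CAT motif CATTCC was in 2 windows, 1 of Tnnt2 and 1 of Tpm1 (12.6% of all), and TATAAA in 1, of Tnnt1 (12.4% of all). The full estrogen response element GGTCANNNTGACC was in 0 (0.0639% of all windows), as were the MEF2 site (2.92%) and the CArG box (1.47%). A half-site AGGTCA, which overlaps the full element in its letters, was in 1 window, of Tpm3 (14% of all windows), and that window at chr3:90072401-90072650 on the plus strand is printed because Esr1 is the gene knocked out. Capitals mark the half-site and the E-box. Such matches are letters in a window, not sites shown to be bound, and Tpm3 itself had a log2 difference of -0.04.
Tpm3 upstream window: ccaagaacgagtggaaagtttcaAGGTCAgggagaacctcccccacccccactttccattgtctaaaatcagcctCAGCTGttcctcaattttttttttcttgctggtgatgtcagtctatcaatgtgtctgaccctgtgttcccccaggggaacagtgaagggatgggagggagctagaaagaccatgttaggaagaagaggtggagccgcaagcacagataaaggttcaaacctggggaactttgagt

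How the genes varied over the 6 libraries is given as a description, as all share the same libraries and scaling. By Pearson's r of log2(CPM + 1) among 10005 genes of at least 5 CPM, the member most like Tnnc2 was Tnni2 (r = 0.79), and the member most like Tnni1 was Tnnc2 (r = 0.72). Tpm2 and Tpm3 were most like each other (r = 0.59), and Tnnt1 and Tpm1 were least alike (r = -0.71), Tnnt1 being high in KO replicate 3 and Tpm1 in KO replicate 1. The single most similar gene was Gnb5 for Tnnt3, Rps9 for Tnni1, Rpl3-ps1 for Tnni2, Psmc2 for Tnnc2, Ndufa10 for Tpm1, Acaca for Tpm2 and Armcx5 for Tpm3. With 6 libraries such values come easily: r was over 0.9 for 48 genes with Tnnt3 and for 137 with Tnni2.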

How the data were processed

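Libraries of Trizol-extracted RNA were prepared with Illumina's TruSeq RNA kit, per the labels' protocols. The submitters' processing notes list TopHat 1.3.3, edgeR and the build mm10, without their roles. Read counter, annotation release and handling of reads with several matches: not given in the sources used here. For each Ensembl gene the authors deposited raw counts as whole numbers. It also holds the authors' deposited log2 fold change and log2 mean abundance, and a deposited p-value and adjusted p-value per gene.

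The 37506 rows held 29 repeats of an Ensembl ID, which were merged. Genes passing filterByExpr (13848) were scaled with TMM (factors 0.968 to 1.037) and tested on genotype with edgeR 4.0.16 in R 4.3.3 (robust quasi-likelihood test, two-sided, Benjamini-Hochberg over all genes tested, threshold 0.05). The standard error was the log2 difference divided by the square root of F. CPM uses TMM-scaled library sizes. Replicates of a group differed beyond sampling noise in each pair (chi-square per gene 3.46 to 9.57). Lengths and coordinates come from GENCODE M21 (GRCm38, the assembly of mm10), sequences from GENCODE transcripts and RefSeq windows; Klhl40, Klhl41 and the beta-globin genes were matched by Ensembl ID.

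The members, lists and tests were chosen with earlier results of these data known. Named were all members, Esr1, from each list at most 4 genes by smallest unadjusted p, and the gene most like each member (that of Tnnt1 is not reported here); genes outside this rule (Myh2, Myh4, Ncam1, Ube2c, Nisch, Mki67, Top2a, Tpm3-rs7 and single markers) and the ratios were chosen after their values were seen. Alternatives were scaling by RLE, by upper quartile or not at all, testing without a filter or with at least 1 CPM in 3 libraries, limma 3.58.1 voom, DESeq2 1.42.0, a replicate block, leaving out each library, other lengths and, chosen after seeing the data, the sum of Tpm3 and Tpm3-rs7 counts.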

Additional observations from a re-analysis of the deposited data

How the results depend on the processing

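Over 15 other settings, 135 values of the 9 tested genes were recomputed, 0 passed an adjusted p of 0.05 (range 0.803 to 1.00), and 12 had the other sign. Those 12 were small: the log2 difference of Tnnt3 was 0.0023 with RLE scaling, 0.0063 with upper-quartile scaling, 0.014 with no scaling, 0.0091 with no filter, 0.0023 with DESeq2, 0.0096 without WT replicate 2 and 0.052 without KO replicate 3. Tnnt1 was at 0.0035 with no scaling, 0.012 without WT replicate 2 and 0.028 without KO replicate 1, Tpm3 at 0.022 without WT replicate 1 and Tpm1 at -0.0022 without KO replicate 1. With each library left out, Tnnt3 ranged from -0.037 to 0.052, Tnnt1 from -0.068 to 0.028, Tpm3 from -0.080 to 0.022 and Tpm1 from -0.0022 to 0.13, while Tnnt2 ranged from -0.71 to -0.32, Tnni1 from 0.11 to 0.22, Tnni2 from 0.038 to 0.11, Tnnc2 from 0.091 to 0.15 and Tpm2 from -0.11 to -0.032, with no change of sign. Of the 9 genes, 2 had an unadjusted p under 0.05, against 1 with upper-quartile scaling, no scaling or the replicate block and 0 to 2 with a library left out. The median of the members ranged from -0.013 to 0.052 in the same way. Over all genes, the number passing was 19 with no filter, 2 with DESeq2 and 1 with limma voom, and 0 to 3 when each library was left out (3 without WT replicate 1), against 0; the cause was not tested. With the replicate block 0 genes passed, 685 had an unadjusted p under 0.05 and 0 members passed; deviations of same-numbered libraries correlated at -0.0142, 0.151 and 0.0401, so the numbers were not taken as pairs. Per kilobase of the longest transcript in place of merged exons, levels were 3776 for Tnnt1, 1.44 for Tnnt2, 2754 for Tnnt3, 646 for Tnni1, 1898 for Tnni2, 0.253 for Tnni3, 2346 for Tnnc2, 901 for Tpm1, 2700 for Tpm2 and 1182 for Tpm3, by construction higher where transcripts differ. The KO minus WT difference in the Tnnt2 share of troponin T was -0.024 percentage points in counts and -0.0059 per kilobase. Depth limits Tnnt2 and Tnni3, and the unknown counting limits Tnnc2 and Tpm3.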

Other observations

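Values of other cell types that quadriceps can hold were read from marker lists. Fibroblast markers summed to 681 to 982 CPM in WT and 745 to 853 in KO, and adipocyte markers to 249 to 327 and 268 to 304. Of the 5 adipocyte markers 4 had a positive log2 difference (49.3% of all genes tested), with a median of 0.30. Of the 5, 1 lay wholly above in KO (4.96% of all) and 0 passed the adjusted threshold in edgeR (0 with an unadjusted p under 0.05). Fabp4, the most abundant of them, had a lower mean in KO, at 227 ± 26.0 CPM (SD, n = 3) in WT against 212 ± 18.0 (SD, n = 3). Of the 6 fibroblast markers 3 were positive and 3 negative. Smooth muscle markers summed to 2313 to 2680 CPM in WT and 2562 to 2675 in KO. Almost all of that was Des, also a skeletal muscle gene, at 2403 ± 190 CPM (SD, n = 3) in WT against 2500 ± 43.3 (SD, n = 3) in KO. Myh11, Acta2, Tagln and Smtn had group means of 22.5 to 46.2 CPM, and Cnn1 and Actg2 of at most 0.750. Of the 5 smooth muscle markers tested, 1 had a positive log2 difference (49.3% of all genes tested) and 4 a negative one. With edgeR 1 of them had an unadjusted p under 0.05 (4.26% of all genes tested) and 0 passed the adjusted threshold. Erythrocyte markers, chiefly globins, summed to 1009 to 1730 CPM in WT and 694 to 1706 in KO. All 5 had a negative log2 difference, as did 7021 of the 13848 genes tested. Their median was -0.39, with 0 past the adjusted threshold in edgeR (0 with an unadjusted p under 0.05). Nrap, a gene of muscle attachment sites, was among the genes of filament stability and did not enter the test for lack of counts.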
